A study of Arabidopsis thaliana with 6 samples.

Results

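The B-box (BBX) genes of Arabidopsis thaliana encode zinc finger proteins of light signalling, and they include CONSTANS (CO) and the CONSTANS-like (COL) genes. All 32 genes of the family were taken by gene identifier, with no threshold on their values but with earlier results of these data known, and 10 of them were found among the 2896 loci of the deposited table. RNA had been sequenced from whole seedlings that were 14 days old and grown in long days, with 3 libraries for wild-type (WT) plants and 3 for pkl plants. The mutated gene, PICKLE (PKL), codes for a CHD3-type chromatin remodeler. The labels do not give the pkl allele, the accession of the wild type, the hour of harvest, or whether the libraries came from separate cultures.

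B-box domains bind zinc and mediate contacts between proteins, and many family members also carry a CCT domain, named after CO, COL and TOC1, which takes part in DNA binding and in complexes with other factors. CO is known for switching on the florigen gene FT in leaves under long days. Other BBX proteins act with or against the bZIP factor HY5 when a seedling turns green in light, and several are marked for degradation by the COP1 and SPA ubiquitin ligase. PKL itself is known to bind HY5. Transcripts of many BBX genes follow the clock and the light cycle, so their level depends on the hour at which seedlings are collected.

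The levels below are the authors' FPKM (fragments relative to transcript length and to the mapped total), and the libraries of a genotype had been combined into 1 value. They carry no standard deviation here, the depth of each library is unknown, and no spread between replicates could be set beside a difference. Every locus in the table had been called by the authors at a q-value under 0.05 and was lower in pkl, so loci outside it have no direction here. PKL (AT2G25170), the mutated gene, had 19.2 FPKM in WT against 6.79 FPKM in pkl, which was 2.84-fold lower in the libraries labelled pkl. As the RNA came from whole seedlings, fewer cells of a type and less RNA per cell cannot be told apart. The root markers CASP1, IRT1, COBL9 (annotated as SHV2) and THAS (annotated as THAS1), all 4 of that list, were also lower in pkl, by 1.61-fold to 2.04-fold, and of the 4 leaf mesophyll markers LHCB1.1 (annotated as CAB2) was listed, 1.55-fold lower. Neither of the 2 pollen markers and neither of the 2 seed markers was in the table. These counts stand beside 14.8% of all tests called lower, a share derived below. In WT, IRT1, COBL9 and THAS had low levels, 1.96, 3.89 and 4.14 FPKM, while CASP1 had 48.5 FPKM. The part of a shift between tissues in the BBX values was not tested.

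Of the 32 BBX genes, 10 (31.2%) were lower in pkl by the authors' call. The ratio of deposited p to q implies 19554 tests in all, of which 14.8% were called lower. The other 22 genes were not listed as lower, their levels were not analysed here, and it is not known which of them had been tested. As a share of annotated nuclear protein-coding genes, 10.8% (2959 of 27444) were in the table. The median fold of the 10 was 1.47, against 1.52 over all 2896 loci, so as a group they did not fall further than the table as a whole. The falls ran from 1.33-fold to 2.36-fold. Only BBX16 and BBX27 reached 2-fold among them, which is 2 of 32 genes where 3.83% of all tests were called at that size.

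**Figure D1:**
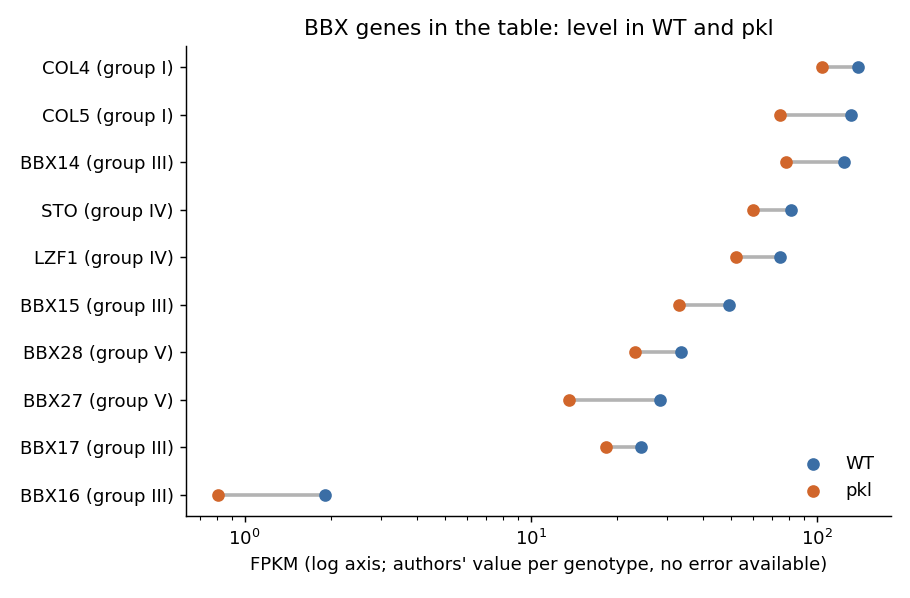
Level of the 10 BBX genes in WT (blue) and pkl (orange), in FPKM on a log axis, 1 value per genotype from the authors' table and ordered by the WT level; grey lines join the values of a gene. All 10 pkl points lie to the left of their WT point, and BBX16, at 1.91 and 0.809 FPKM, lies far below the other 9.

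The family is divided into 5 structural groups, which differ in domain content except for groups I and II. Groups I and II have a pair of B-boxes and a CCT domain, group III a single B-box and a CCT domain, group IV a pair of B-boxes without CCT, and group V a single B-box alone. RefSeq annotates a CCT domain in all 17 members of groups I to III and in none of the 15 members of groups IV and V. All 4 genes of group III were in the table, against 2 of 6 in group I, 0 of 7 in group II, 2 of 8 in group IV and 2 of 7 in group V. Of the genes with a CCT domain 6 of 17 were listed, and of those without 4 of 15. Beside these counts, 14.8% of all tests were called lower. Domain content as described here does not separate group I from group II. No test was made on the group and CCT counts, and the levels of the genes outside the table are not known here.

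**Figure D2:**
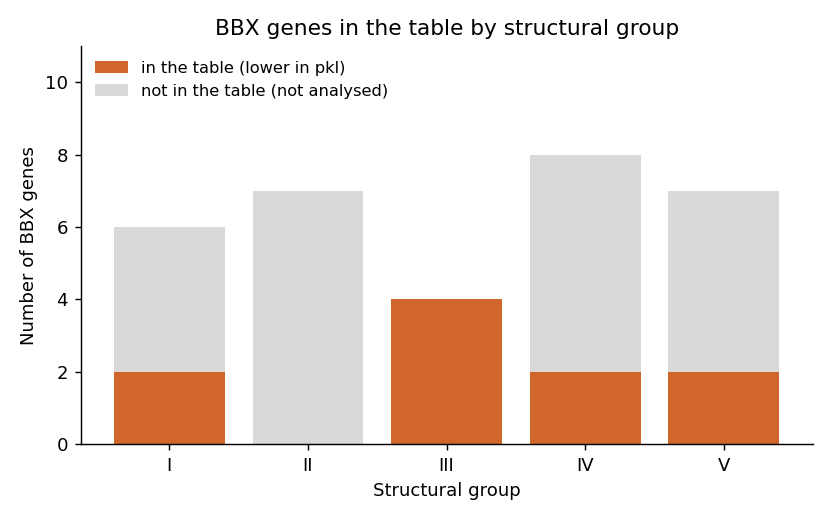
Number of BBX genes (vertical axis) in each structural group (horizontal axis), split into those in the deposited table as lower in pkl (orange) and those not in it, which were not analysed (grey). Group III is filled, with 4 of 4, and group II has 0 of 7, beside 14.8% of all tests called lower.

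Group III was lower in pkl at all of its genes, over a wide range of levels. BBX14 (AT1G68520, chromosome 1, positions 25709114 to 25710907 of TAIR10, minus strand) had 125 FPKM in WT against 78.1 FPKM in pkl, 1.60-fold lower. BBX15 (AT1G25440, chromosome 1, positions 8933716 to 8935460, minus strand) had 49.4 FPKM in WT against 33.0 FPKM in pkl, 1.50-fold lower. Homologues of BBX15 in petunia are known to raise chlorophyll content. BBX16 (AT1G73870, also named COL7, chromosome 1, positions 27779166 to 27780676, plus strand) had 1.91 FPKM in WT against 0.809 FPKM in pkl. BBX16 is known to act downstream of the GUN1 and GLK1 retrograde pathway, which reports the state of the chloroplast to the nucleus, and in shoot branching under shade. Its fall of 2.36-fold was the largest ratio of the 10, but its level in WT ranked 2681 of the 2896 loci, and with 1 FPKM added to both values its log2 fold change (-0.69) was smaller in size than those of BBX27 (-0.998) and COL5 (-0.81). BBX17 (AT1G49130, chromosome 1, positions 18174740 to 18176022, minus strand) had 24.4 FPKM in WT against 18.4 FPKM in pkl. That gene had the smallest fold of the 10, 1.33, and delays flowering when overexpressed.

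In the authors' deposited table the q-value of BBX14, BBX15 and BBX16 was 0.000338, which belongs to the smallest p-value listed, 5e-05, and that of BBX17 was 0.00385. Summed over the group, the level went from 201 FPKM in WT to 130.2 FPKM in pkl, 1.54-fold lower, and BBX14 and BBX15 made up most of it in both genotypes.

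BBX14 and BBX15 have the most similar coding sequences among the pairs whose genes were both in the table and that aligned over at least 80% of the longer one. They were 73.6% identical over 1185 aligned bases. The stretch printed here, from an ungapped local alignment, is the first 189 bases of each coding sequence. The B-box is encoded near its start, and 160 of its bases (84.7%) are identical. It is shown because both genes were lower. It is not the most similar stretch, as a BLAST search aligned 142 bases of the pair at 89.4% identity. The sequences are from RefSeq TAIR10.1, chr1:25710561-25710749 for BBX14 and chr1:8935096-8935284 for BBX15, both on the minus strand, read 5′ to 3′ from the start codon, with the 29 differing bases in capitals.
BBX14: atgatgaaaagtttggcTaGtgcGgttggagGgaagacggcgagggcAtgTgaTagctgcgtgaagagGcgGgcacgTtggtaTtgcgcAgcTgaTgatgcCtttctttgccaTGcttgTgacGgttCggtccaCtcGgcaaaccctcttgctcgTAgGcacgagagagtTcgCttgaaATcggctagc
BBX15: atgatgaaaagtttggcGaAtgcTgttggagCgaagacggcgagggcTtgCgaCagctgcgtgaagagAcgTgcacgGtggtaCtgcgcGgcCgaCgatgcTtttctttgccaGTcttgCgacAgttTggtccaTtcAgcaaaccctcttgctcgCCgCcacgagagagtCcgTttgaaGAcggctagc

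Of those 29 differences, 22 fall on the third base of a codon, 4 on the first and 3 on the second. None of the 32 members had a copy with at least 95% identity over at least 80% of its coding sequence. Only the longest coding sequence of each gene was searched, and how reads were assigned to BBX14 and BBX15 was not tested.

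In group I, which holds CO and its closest relatives, COL4 and COL5 were lower in pkl. These were the BBX genes with the highest levels in WT of those in the table. COL5 (AT5G57660, chromosome 5, positions 23355464 to 23356989, plus strand), which can promote flowering in short days when overexpressed, had 132 FPKM in WT against 74.5 FPKM in pkl. It fell 1.77-fold, and by 57.1 FPKM, the largest difference in FPKM of the 10. COL4 (AT5G24930, chromosome 5, positions 8589234 to 8591236, plus strand), described as a modulator of flowering time and stress responses, had 140.1 FPKM in WT against 105 FPKM in pkl, 1.34-fold lower. Both had a q-value of 0.000338 in the authors' deposited table. CO, COL1, COL2 and COL3 were not in the table, and neither was any gene of group II. COL3, the closest relative of COL4, shares 80.1% of bases with it over a stretch of 287 bases, short of a near-identical copy.

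In group IV, some of whose proteins are known partners of HY5, STO and the locus that holds LZF1 were lower in pkl. STO (AT1G06040, BBX24, chromosome 1, positions 1828413 to 1829890, minus strand), a negative regulator of photomorphogenesis and of UV-B responses, had 81.5 FPKM in WT against 60.0 FPKM in pkl, 1.36-fold lower. LZF1 (AT1G78600, BBX22) promotes photomorphogenesis together with HY5. Its locus had 74.6 FPKM in WT against 52.4 FPKM in pkl, 1.42-fold lower. These proteins have opposite known effects on seedling light responses. Both loci had a q-value of 0.000338 in the authors' deposited table, and that of LZF1 is shared with another gene, as given below.

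Both values carry a limit of annotation. The locus of LZF1 (chromosome 1, positions 29564249 to 29568859, plus strand) also holds the upstream gene NADK3 (AT1G78590), which ends 50 bases before LZF1 starts, so its FPKM belongs to the pair. STO overlaps AT1G06045, annotated on the opposite strand, over 344 bases inside the locus, and the strandedness of the libraries is not given in the sources used here. Whether reads of STO and of that gene can be told apart in this stretch is therefore not known. BBX14 and BBX17 also overlap an opposite gene at their ends (LBD42 and CRF9, over 329 and 44 bases), but the loci in the table end short of both overlaps.

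In group V, BBX27 and BBX28 were lower in pkl. BBX27 (AT1G68190, chromosome 1, positions 25558966 to 25561217, plus strand) had 28.2 FPKM in WT against 13.6 FPKM in pkl, a 2.07-fold fall. BBX28 (AT4G27310, chromosome 4, positions 13675638 to 13676910, plus strand), which is known to bind HY5 and hold back its activity, had 33.5 FPKM in WT against 23.3 FPKM in pkl, 1.44-fold lower. Both had a q-value of 0.000338 in the authors' deposited table. BBX27 was thus the well-expressed member with the largest fold, while 23.2% of the loci in the table fell further.

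Added together, the 10 loci went from 690.3 FPKM in WT to 459 FPKM in pkl, 1.50-fold lower, with LZF1 counted together with NADK3. COL4, COL5 and BBX14 made up 57.5% of that sum in WT and 56.1% in pkl. The order of the levels was kept at 6 of the 10 genes. COL5 ranked above BBX14 in WT and below it in pkl, and BBX27 ranked above BBX17 in WT and below it in pkl. Without values per library it is not known whether such neighbours in the order differ beyond their spread. In the table as a whole, 9 of the 10 lay above the median WT level of 16.8 FPKM, and 4 of the 10 fell by more than the median locus. Of the 10 members, 9 had the smallest p-value listed, as had 49.3% of all loci.

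**Figure D3:**
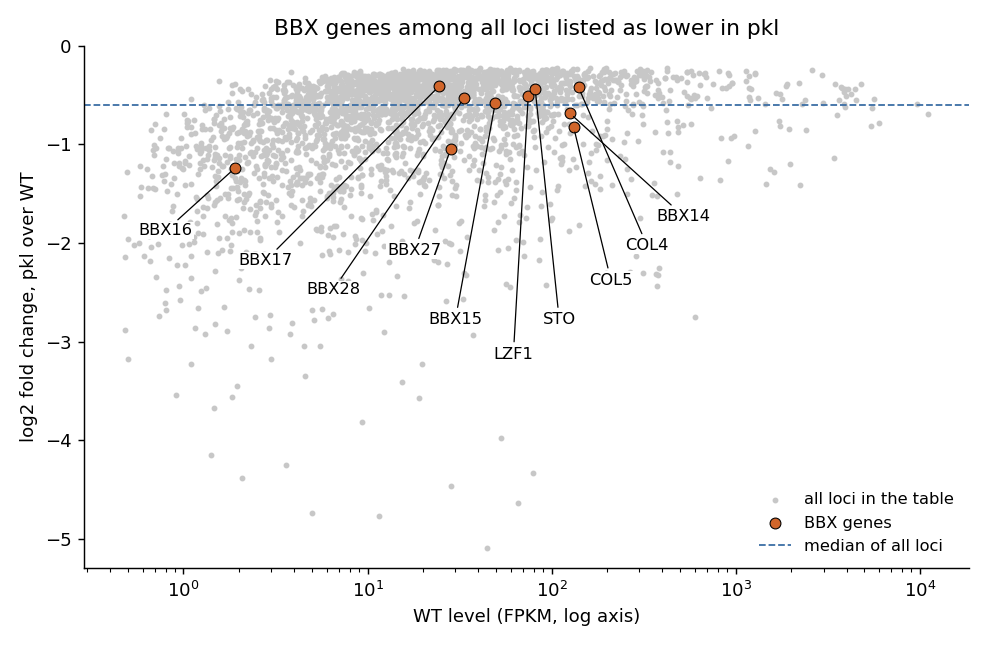
Each point is a locus of the deposited table, with its WT level in FPKM (horizontal log axis) and its log2 fold change of pkl over WT (vertical axis); the 10 BBX genes are orange and named, and the dashed line is the median of all 2896 loci, at -0.60. BBX16, BBX27, COL5 and BBX14 lie below that line and the other 6 above it.

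The counts of BBX genes in the table differed between the chromosomes, and these differences were not tested. On chromosome 1, 7 of 10 BBX genes were in it, among them all 4 of group III. On chromosomes 2 and 3 it was 0 of 10, on chromosome 4 it was 1 of 6, and on chromosome 5 it was 2 of 6. Of all nuclear protein-coding genes, between 9.56% (chromosome 3) and 12.3% (chromosome 4) per chromosome were in the table, and 11.1% of those on chromosome 1. BBX27 and BBX14 lie 146926 bases apart on chromosome 1. A direct protein-coding neighbour was also in the table for 5 of the 10 genes, which is 1 gene in the same locus (NADK3) and 4 others, against 33.2% of all 2959 protein-coding genes in the table. Next to COL4, GDU5 fell 4.25-fold, from 7.82 to 1.84 FPKM, and next to BBX16, AT1G73860 fell 2.27-fold, from 1.02 to 0.450 FPKM. The neighbour of BBX15, KCS5, fell 1.52-fold, and that of COL5, AT5G57655, fell 1.37-fold.

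Coding lengths of the genes in the table and outside it overlapped. The median coding length was 1078 bases (672 to 1254) for the 10 and 939 bases (354 to 1302) for the other 22. The shortest coding sequences, those of the microproteins BBX30 and BBX31, belong to genes outside the table. These are ranges over genes, which were not tested against each other.

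Motifs were searched on both strands of the 250 bases before each RefSeq gene start. They were the G-box CACGTG, known to be bound by HY5 and by phytochrome-interacting factors, its core ACGT, the evening element AAAATATCT and the CCA1 site AAAAATCT, the last pair known from clock-controlled genes. Every G-box holds an ACGT core. The core was present before 4 of the 10 genes and in 44.1% of all 27444 promoters of this length. A G-box was present before COL4 alone of the 10, the evening element before STO alone and the CCA1 site before BBX28 alone, each in 1 of 10, while all promoters held them in 6.49%, 2.36% and 6.69% of cases. Over all 32 members the G-box was present in 4, the evening element in 3 and the CCA1 site in 3. For COL4, RefSeq annotates no untranslated region, and the locus in the table begins 223 bases before the annotated start. Its G-box, 169 to 164 bases before that start, thus lies inside the assembled locus.

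The windows before the 2 genes with the largest WT to pkl ratio, BBX16 and BBX27, and before STO and BBX28, chosen after their matches were seen because they hold the clock motifs, are printed 5′ to 3′ on the strand of the gene, from RefSeq TAIR10.1, with matches in capitals. BBX16 is chr1:27778734-27778983 (plus strand), BBX27 is chr1:25558544-25558793 (plus strand), STO is chr1:1829984-1830233 (minus strand) and BBX28 is chr4:13675287-13675536 (plus strand).
BBX16: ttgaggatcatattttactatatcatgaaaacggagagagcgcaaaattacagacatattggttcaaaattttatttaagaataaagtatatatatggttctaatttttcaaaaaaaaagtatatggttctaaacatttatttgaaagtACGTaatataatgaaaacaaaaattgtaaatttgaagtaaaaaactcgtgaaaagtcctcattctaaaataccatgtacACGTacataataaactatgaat
BBX27: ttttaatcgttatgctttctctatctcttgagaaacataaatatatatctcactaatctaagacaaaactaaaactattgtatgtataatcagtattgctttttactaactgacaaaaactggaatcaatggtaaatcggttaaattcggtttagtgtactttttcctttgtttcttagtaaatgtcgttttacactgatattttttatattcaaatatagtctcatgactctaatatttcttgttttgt
STO: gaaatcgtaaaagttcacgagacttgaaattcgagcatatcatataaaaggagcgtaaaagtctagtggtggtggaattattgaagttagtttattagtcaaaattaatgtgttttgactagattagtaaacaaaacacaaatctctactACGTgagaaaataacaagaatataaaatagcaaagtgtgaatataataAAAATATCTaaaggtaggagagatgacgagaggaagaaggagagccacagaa
BBX28: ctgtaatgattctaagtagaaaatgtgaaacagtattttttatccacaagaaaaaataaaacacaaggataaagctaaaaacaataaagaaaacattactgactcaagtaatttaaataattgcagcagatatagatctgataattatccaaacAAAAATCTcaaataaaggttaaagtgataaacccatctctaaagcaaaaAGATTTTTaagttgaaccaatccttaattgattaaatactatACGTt

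BBX16 has an ACGT core at 101 to 98 and at 22 to 19 bases before its start. STO has the evening element at 52 to 44 bases and an ACGT core at 100 to 97 bases before its start. BBX28 has the CCA1 site at 96 to 89 and, on the other strand, at 47 to 40 bases. BBX27 has none of these letters in its window, which says nothing of the factors that bind there. The windows are rich in A and T, with a GC content of 24% for BBX16, 26% for BBX27, 31.6% for STO and 25.2% for BBX28. A match is a run of letters and not a shown binding site.

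Motifs were also searched in the 1000 bases before each gene start. This window holds the shorter one, so the number of genes with a match could not fall. The CCA1 site was present before 5 of the 10 BBX genes in the table (COL5, LZF1, STO, BBX27 and BBX28), before 6 of the 22 others and before 21.1% of all 27444 protein-coding genes. The evening element was present before 3 of the 10 (LZF1, STO and BBX28), before 5 of the 22 others and before 7.24% of all. The G-box was present before 2 of the 10 (COL4 and BBX28), before 7 of the 22 others and before 14.8% of all. The ACGT core was present before 7 of the 10, before 18 of the 22 others and before 85.0% of all, so here the share among the 10 was below that of all genes. Over the whole family the CCA1 site, the evening element, the G-box and the core were present before 11, 8, 9 and 25 of 32 genes. BBX15 and BBX17 had none of the 4 motifs in this window. BBX28 had the most kinds, all 4, and 7 ACGT cores. Windows were not cut at neighbouring genes in any of these counts. The window of LZF1 begins inside its neighbour NADK3, 50 bases away. The CCA1 site and the evening element of LZF1, at 283 to 276 and 458 to 450 bases, fall inside NADK3. The 4 ACGT cores of LZF1, between 892 and 309 bases, do so too. The upstream neighbour of BBX27, AT1G68185, lies 260 bases away. The CCA1 site of BBX27, at 276 to 269 bases, falls inside that gene. For STO, the neighbour on the upstream side was the overlapping AT1G06045, and the gene beyond it was not examined. The longer window was chosen after the matches in the shorter one were seen, and no test was made.

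**Figure D4:**
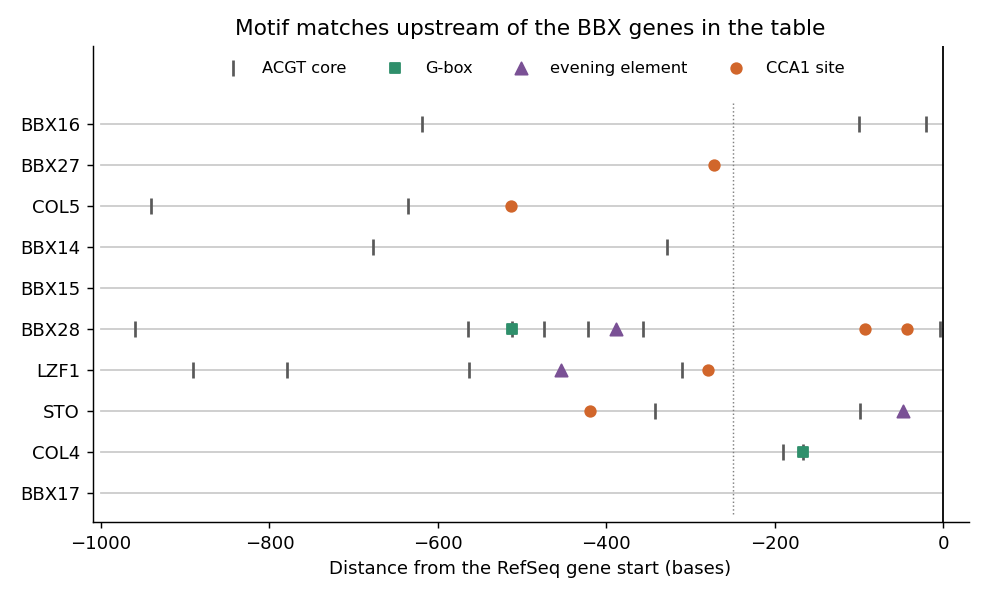
Motif matches in the 1000 bases before the start of the 10 BBX genes in the table, ordered by fall, with the distance from the RefSeq gene start in bases on the horizontal axis; each symbol is a match on either strand, and the dotted line marks 250 bases. Matches are most frequent before BBX28, and the lines of BBX15 and BBX17 are empty.

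The BBX proteins act with photoreceptors, the COP1 and HY5 hub, the photoperiod pathway and the clock. Of 50 genes in 5 such lists, 14 (28.0%) were lower in pkl by the same call. The photoperiod pathway around CO and FT had 7 of 17 genes in the table. Of the 4 cycling DOF factors in the list, which repress CO transcription in the morning, CDF1, CDF2 and CDF3 were lower and CDF5 was not in the table. CDF2 fell 1.84-fold, from 4.21 to 2.29 FPKM, CDF1 fell 1.84-fold, from 2.31 to 1.26 FPKM, and CDF3 fell 1.71-fold, from 10.5 to 6.12 FPKM. GI, which helps to remove the CDF proteins in the afternoon, fell less, 1.25-fold, from 34.1 to 27.4 FPKM. The floral integrator SOC1 fell 1.50-fold, and among the NF-Y subunits that form a complex with CO, NF-YB3 fell 1.26-fold and NF-YC4, which shares its locus with AT5G63460, fell 1.18-fold. The other NF-Y subunits of the list, NF-YB2, NF-YC3 and NF-YC9, were not in the table. FKF1, the partner of GI in removing the CDF proteins, and CO and FT themselves were not in it either. For NF-YB3 and NF-YC4 the authors' deposited table gave q-values of 0.016 and 0.0411.

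Of 5 pseudo-response regulators, clock proteins that share the CCT domain with groups I to III, 3 were lower. PRR5 fell 2.58-fold, PRR9 fell 2.03-fold from 1.03 FPKM (q-value 0.0117 in the authors' deposited table), and PRR7, whose locus holds AT5G02800 too, fell 1.59-fold. Of 8 photoreceptor genes only CRY1, a blue light receptor, was listed, at 62.4 FPKM in WT against 41.2 FPKM in pkl (1.51-fold lower). Of the 11 genes of the COP1, SPA and HY5 hub, 2 were in it. RUP1, a repressor of the UV-B receptor UVR8, fell 1.60-fold, from 15.0 to 9.34 FPKM, and HFR1, a bHLH factor degraded through COP1, fell 1.42-fold, with a q-value of 0.0395 in the authors' deposited table. HY5, HYH, COP1 and the SPA genes were not in it. Of 9 output genes of HY5 and BBX proteins, only the flavonol regulator MYB12 was listed, at 2.17 FPKM in WT against 1.19 FPKM in pkl (1.82-fold lower). The list shares were 41.2%, 60.0%, 12.5%, 18.2% and 11.1% in this order, beside the 14.8% of all tests, and none was tested.

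**Figure D5:**
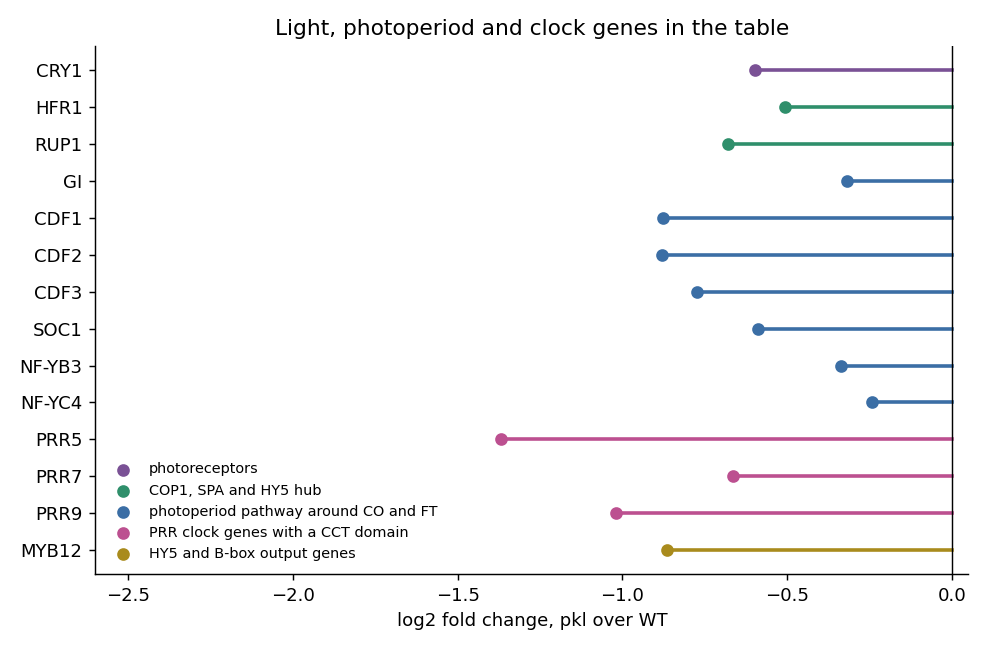
Log2 fold change of pkl over WT (horizontal axis) for the 14 genes of the light, photoperiod and clock lists that were in the table, coloured by list; each line runs from 0 to the authors' value. PRR5 reaches -1.37, and the values of the photoperiod genes lie between -0.88 and -0.24.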

How the data were processed

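Total RNA of whole seedlings (3 WT and 3 pkl libraries) had been aligned with TopHat and processed with Cufflinks 2.1.1 and Cuffdiff 2.1.1 on TAIR10, per the submitters' processing notes. The deposited table gave FPKM as 1 value per genotype and locus, per the file headers. The deposited log2 fold change of the authors matched the log2 ratio of the FPKM columns within 1.2e-05. The deposited p-values were multiples of 5e-05, and the q-values were adjusted by the authors over all their tests. The test statistic, a deposited score, was not used. No count, library size or value per replicate was used, so no error could be computed and no replicate could be left out.

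Members were found by splitting the gene column at commas. The members and gene lists were chosen with earlier results of these data known. Genes named were PKL, every BBX gene in the table, and up to 4 genes of each list with the largest change; GI, NF-YB3 and NF-YC4 were added after their values were seen. The number of tests, 19554, was the whole number that made the ratio of p to q a whole rank at every locus (within 0.017), and the search was tested on simulated data. Locus starts were shifted from a count that begins at 0 to one that begins at 1. Each of 2738 compared loci with a single gene overlapped that gene in RefSeq TAIR10.1. Names are those of RefSeq, in which 3024 of 3033 identifiers had an entry. Coding sequences were aligned globally with Biopython 1.88, with match 1, mismatch -1, gap opening -5, gap extension -0.5 and end gap -0.1, and searched for copies with BLAST+ 2.17.0 (megablast). The BBX14 and BBX15 stretch came from an ungapped local alignment with match 1 and mismatch -2. The planned comparison of protein features was replaced by coding sequences and the annotated domains.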

Additional observations from a re-analysis of the deposited data

How the results depend on the processing

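The count of 10 BBX genes in the table was 10 at q under 0.01 and with at least 1 FPKM in WT, 9 with at least 5 FPKM, where BBX16 drops out, and 9 without loci of several genes, where LZF1 drops out. With a minimum of 2-fold it was 2, where 3.83% of all tests were called lower. With Bonferroni adjustment it was 0, as a p of 5e-05, the lowest in the table, cannot pass 19554 tests. No share over all tests was computed for q under 0.01, the FPKM minima or loci of a single gene. The median log2 fold change of the 10 BBX genes stayed between -0.55 and -0.54 with pseudocounts of 0.1 and 1 FPKM, and was -0.58 without LZF1. With a pseudocount of 1 FPKM, BBX16 moved from -1.24 to -0.69, from the largest fall to the third after BBX27 and COL5, and each of the other 9 stayed lower. With a 2-fold minimum the photoreceptor, HY5 hub, photoperiod and output lists had 0 genes each, and the PRR list had 2. At q under 0.01 the HY5 hub list went from 2 to 1, the photoperiod list from 7 to 5 and the PRR list from 3 to 2. No paired analysis was possible because values per library were not used here. Leaving out each replicate, the replicate block and a recentring on all tested loci were not run, since they need values per library or loci outside the table.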
